A study of Mus musculus with 4 samples.

Results

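The 30 genes described here are genes of eosinophils, basophils and mast cells, chosen by name with earlier results of these data known. All 30 were found among the 55401 genes of the count table. Their RNA was measured by poly(A) RNA-seq in bone marrow-derived macrophages (macrophages grown in culture from marrow cells) of C57BL/6J mice. Cells of both groups were given CRISPR-Cas9 lentivirus (30 infectious units per cell, day 1) and were differentiated over 5 days, in the batch labelled 1. In 2 libraries the virus was directed at Adcy7, an adenylyl cyclase gene (Adcy7 knockout), and in 2 libraries at Rosa, a locus commonly used as a neutral target (Rosa control). The whole culture was sequenced with no sorting named in the labels, so RNA of minor cell types is part of each library. The labels do not say whether the 2 libraries of a group came from separate mice or cultures, and p-values then measure only the spread between these libraries.

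Eosinophils, basophils and mast cells are granulocytes of type 2 immunity that develop from marrow progenitors. The transcription factors GATA1 and GATA2 act in all 3 lineages, and also in megakaryocytes and red cell precursors. Eosinophils store toxic cationic proteins and ribonucleases in their granules and depend on interleukin 5, whereas basophils and mast cells carry the high-affinity receptor for IgE and store histamine and proteases. Basophils mature in the marrow, while mast cells take on their full set of proteases after they settle in tissue.

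Library totals ran from 61782358 to 71914179 counts, and levels are given as CPM, the count divided by the library total and scaled to 1e+06. Adcy7 itself was at 59.4 and 58.8 CPM in the knockout libraries and at 122 and 125 CPM in the control libraries (fitted log2 fold change -1.05, SE 0.09), lower where the labels name it as the target. Macrophage markers were present in all libraries. Csf1r had mean levels of 1237 CPM in knockout and 1809 CPM in control libraries, and Cd68 of 925 and 886 CPM. Mertk and Fcgr1 were at 1.82% and 11.8% of the control level in the knockout.

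Of the 30 genes, 20 were higher in the knockout libraries, 0 were lower, 4 were tested and did not pass, and 6 had too few counts to be tested. A gene was called at an adjusted p under 0.05 (edgeR, quasi-likelihood test, Benjamini-Hochberg over all 15832 tested genes). At an unadjusted p under 0.05 the number of lower members was also 0, as it was with DESeq2. Among all tested genes 49.6% were called, 25% higher and 24.6% lower, and 11.8% were called higher by at least 2-fold, as were the 20 members. Both knockout values exceeded both control values in 23 of the 30 members, including Il5ra and Fcer1a, which were not tested. All tested genes did so in 37.4% of cases, and lay below in 37.8%, as Il4 did among the members. The median fitted log2 fold change of the 24 tested members was 3.02, or 2.92 with Ear6, which had no control count, set at its bound, against 0.01 for all tested genes. Of the 24, 7 were below the count filter in at least 1 control library and entered the test through their knockout counts (Ear1, Ear2, Ear6, Cd200r3, Cpa3, Ms4a2 and Gata1), so their difference follows in part from the filter. Of the other 17, which both control libraries also held above the filter, 13 were higher and 4 did not pass, against 23.1% higher among all 14368 genes held so. Because the members were chosen with earlier results known, these contrasts with all genes are a description. Bulk RNA cannot tell more cells of a type from more RNA per cell.

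**Figure D1:**
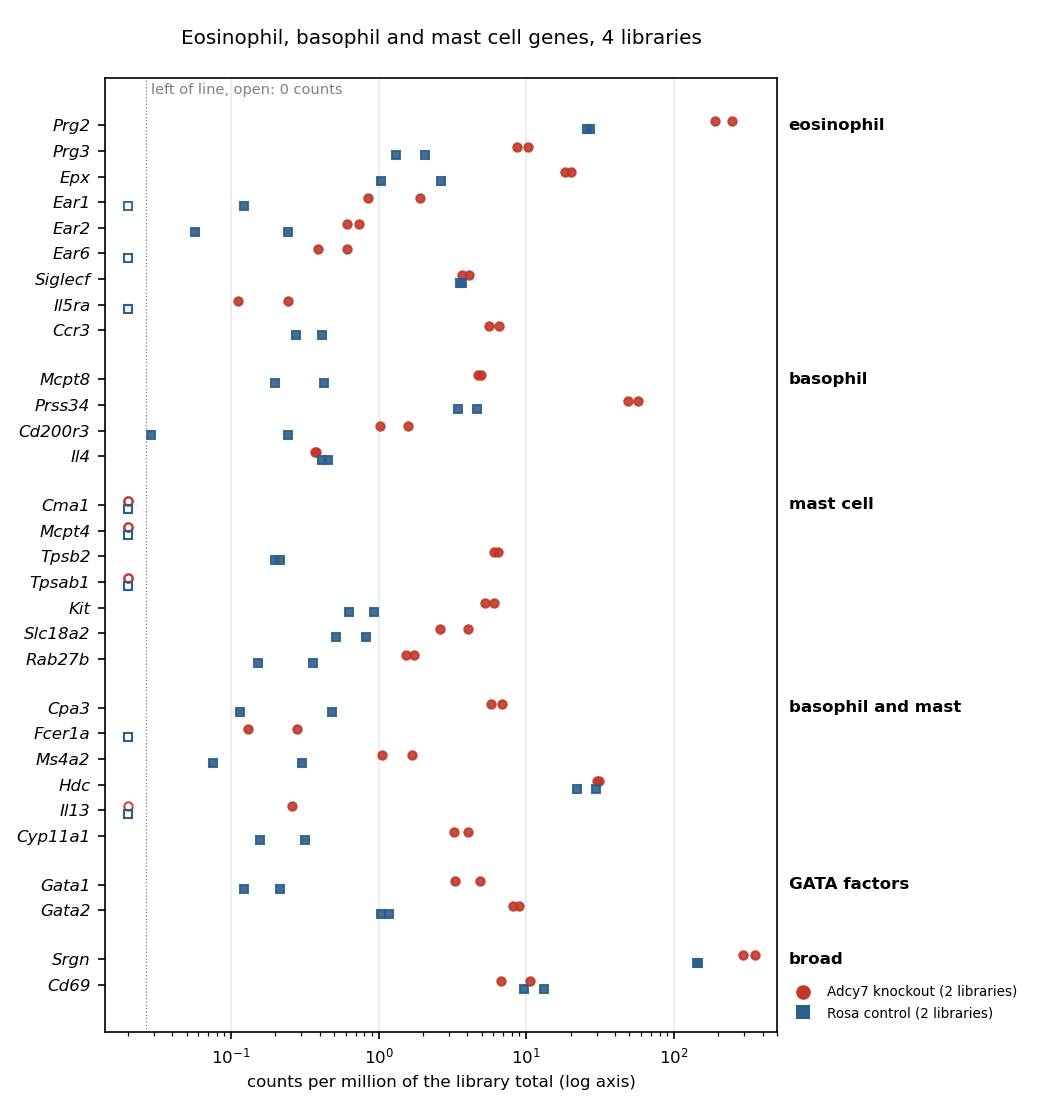
Level of each of the 30 genes in the 4 libraries in CPM on a log axis, with open symbols at the left for 0 counts. Knockout circles lie to the right of the control squares for Prg2, Prss34, Tpsb2 and Gata1, lie among them for Siglecf and Cd69, and are open for Cma1, Mcpt4 and Tpsab1.

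The 3 eosinophil granule protein genes were all higher. Prg2 (ENSMUSG00000027073, chromosome 2), which encodes major basic protein, was at 249 and 190 CPM in knockout replicates 1 and 2 and at 27.1 and 25.7 CPM in control replicates 1 and 2. The lowest knockout value was well above the highest control value, an 8.30-fold difference of means (219 CPM ± 41.8 against 26.4 CPM ± 1.02, SD, n = 2 each), with an adjusted p of 3.04e-08 from edgeR. Its homologue Prg3 lies beside it on the chromosome and was at 10.3 and 8.63 CPM in the knockout and at 2.07 and 1.3 CPM in the control. This 5.63-fold difference (log2 fold change 2.52, SE 0.24) was the smaller of the pair. Epx, the eosinophil peroxidase gene on chromosome 11, was at 20.2 and 18.3 CPM against 2.66 and 1.04 CPM, or 10.4-fold higher. The 2 control values of Epx differed 2.55-fold from each other. The log2 fold change of 3.41 became 4.20 without control replicate 1 and 2.89 without control replicate 2. Per kilobase of exon, Prg2 was at 262 CPM per kb in the knockout, Prg3 at 9.99 and Epx at 7.04, an order that was the same in the control (31.5, 1.78 and 0.677). The coding sequences of Prg2 and Prg3 were 62.3% identical and shared no stretch of 50 bases.

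The eosinophil-associated ribonucleases split into members that were higher and relatives that were far lower. Ear1 was at 0.848 and 1.91 CPM in the knockout and at 0.122 and 0 CPM in the control, Ear2 at 0.737 and 0.615 CPM against 0.243 and 0.0572 CPM, and Ear6 at 0.612 and 0.388 CPM with no count in either control library. All 3 passed (adjusted p of 0.00122, 0.0172 and 0.00286 in edgeR's test), at 24 to 118 counts a knockout library. As given above, they entered the test through these knockout counts, so their difference follows in part from the filter. The ratio for Ear1 was 22.8 with a 95% counting interval of 5.96 to 194, its control libraries holding 8 counts and 0. The pooled level of Ear6 was 5.75-fold a control floor of 12 counts. Ear2 was 4.5-fold higher and was the 1 call lost under any alternative. Its log2 fold change of 2.21 became 1.5 (adjusted p of 0.169) without control replicate 2, 3.52 without control replicate 1 and 2.04 (0.0856) without knockout replicate 1, and its adjusted p was 0.0591 with no count filter. For Ear1 the log2 fold change of 4.48 became 3.48 without control replicate 2 and 3.85 without knockout replicate 2. Without control replicate 1 no control count of Ear1 was left.

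Rnase2a and Rnase2b, which belong to the same gene family on chromosome 14, went the other way. Rnase2a was at 0.0834 and 0.0647 CPM in the knockout and at 19.9 and 20.3 CPM in the control, a control level 335-fold that of the knockout (95% counting interval 92.4 to 2773). Rnase2b was at 0.153 and 0.0971 CPM against 3.3 and 4.58 CPM, or 31.5-fold lower in the knockout. Ear10 and Ear14 had no count in any library. The start of the coding sequences shows how far these genes can be told apart by short reads. The lines give bases 1 to 90 of each coding sequence from GENCODE M21, 5′ to 3′, with capitals where a base differs from Ear2 at the same position.
Ear2: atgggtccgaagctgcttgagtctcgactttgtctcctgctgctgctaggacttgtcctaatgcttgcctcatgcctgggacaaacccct
Ear1: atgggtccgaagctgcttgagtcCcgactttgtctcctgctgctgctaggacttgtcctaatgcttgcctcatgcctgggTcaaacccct
Ear6: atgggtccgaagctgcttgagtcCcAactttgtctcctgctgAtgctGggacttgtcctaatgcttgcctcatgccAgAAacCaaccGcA
Rnase2a: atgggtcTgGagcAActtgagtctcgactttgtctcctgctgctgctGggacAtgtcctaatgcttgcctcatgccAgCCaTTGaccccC
Rnase2b: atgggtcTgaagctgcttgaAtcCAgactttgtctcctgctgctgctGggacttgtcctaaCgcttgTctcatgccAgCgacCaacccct
In this stretch Ear1 differed from Ear2 at 2 bases, Ear6 and Rnase2b at 10 each and Rnase2a at 13. Over the whole coding sequence Ear1 and Ear2 were 95.1% identical, and 17.4% of the 50-base stretches of Ear1 were also in Ear2, so counts of these 2 genes may be split between them. Ear6 shared 87.7% of bases with Ear2, and Rnase2a 79.8%, with no common stretch of 50 bases in either pair. A pseudogene, Ear-ps9, overlaps an exon of Ear1 on the same strand and held 14 and 10 knockout counts and 0 control counts.

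Surface receptors of eosinophils did not move as a block. Ccr3, the receptor for eotaxins on chromosome 9, was at 5.56 and 6.51 CPM in the knockout and at 0.274 and 0.415 CPM in the control, a 17.5-fold difference (log2 fold change 4.13, SE 0.33, adjusted p of 2.13e-06 in edgeR's test). Siglecf, a sialic acid-binding receptor that marks eosinophils and also the macrophages of lung alveoli, was at 3.66 and 4.11 CPM against 3.56 and 3.68 CPM. Its groups overlapped, and its log2 fold change of 0.11 (SE 0.21) did not pass. Il5ra, the interleukin 5 receptor subunit that defines the lineage's growth factor response, had 8 and 15 counts in the knockout libraries and 0 in both control libraries. It was too low to be tested, and its pooled level was 1.94-fold a control floor of 12 counts.

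Of the 4 genes of the basophil list, 3 were higher and Il4 did not pass. Prss34, which encodes a basophil serine protease (ENSMUSG00000056399, chromosome 17), was the most abundant of them at 57.1 and 48.9 CPM in the knockout, against 4.67 and 3.46 CPM in the control. This was 13-fold (53 CPM ± 5.78 against 4.07 CPM ± 0.852, SD, n = 2 each; adjusted p of 2.08e-08 in edgeR's test). Mcpt8, the basophil granule protease gene on chromosome 14, was at 4.94 and 4.71 CPM against 0.198 and 0.429 CPM, or 15.4-fold higher. Its log2 fold change of 3.94 became 4.63 without control replicate 2 and 3.48 without control replicate 1. Cd200r3, an activating receptor found on basophils and mast cells, was at 1.02 and 1.59 CPM against 0.243 and 0.0286 CPM. The 2 control libraries held 16 and 2 counts of it, and the log2 fold change of 3.27 became 5.39 without control replicate 1 and 2.42 without control replicate 2, passing in each case. Il4, the cytokine that basophils, T cells and innate lymphoid cells make, was at 0.375 and 0.372 CPM in the knockout and at 0.456 and 0.415 CPM in the control. Its log2 fold change was -0.20 with an SE of 0.54, and it did not pass.

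Mast cell genes divided into those that were higher and those with no count at all. Tpsb2, a mast cell tryptase gene on chromosome 17, had the largest fold of the members counted in all 4 libraries, at 6.47 and 6.05 CPM in the knockout against 0.198 and 0.215 CPM in the control. Replicates lay close together in both groups, and the difference was 30.4-fold (log2 fold change 4.93, SE 0.36, adjusted p of 8.92e-07 in edgeR's test). Kit, the stem cell factor receptor of mast cells and early progenitors, was at 5.28 and 6.05 CPM against 0.928 and 0.63 CPM, or 7.28-fold higher. Slc18a2, the vesicular transporter that loads histamine and other amines into granules, was at 4.03 and 2.59 CPM against 0.517 and 0.816 CPM. Rab27b, a small GTPase of secretory granules and also of platelets, was at 1.53 and 1.73 CPM against 0.152 and 0.358 CPM. These were 4.97-fold and 6.40-fold differences. The log2 fold change of Rab27b went from 2.66 to 3.43 without control replicate 2 and to 2.17 without control replicate 1.

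Other mast cell protease genes had no count. Cma1 and Mcpt4, chymase genes of connective tissue mast cells, had 0 counts in all 4 libraries, as did Tpsab1, a tryptase gene whose product C57BL/6 mice are known to lack. A count of 0 allows up to 12 pooled counts in a group, or 0.0898 CPM (knockout) and 0.0885 CPM (control). The order of genes along the chromosomes (GENCODE M21) puts silent and counted proteases side by side. In the chymase cluster on chromosome 14, Cma1, Cma2, Mcpt9, Mcpt2 and Mcpt4 had no count and Mcpt1 had 7 counts in 1 knockout library. Mcpt8 follows them, and then Ctsg, the cathepsin G gene of neutrophil and mast cell granules, at 36.5 and 42.1 CPM in the knockout against 34.6 and 27.8 CPM. At the far end Gzmc and Gzmb had 61 and 65, and 110 and 121, counts in the knockout libraries and 0 in the control libraries, and the 5 granzyme genes between them and Ctsg had none. In the tryptase cluster on chromosome 17, only the stretch from Prss34 to Tpsb2 was read, and Prss29 and Tpsab1 within it had no count. Prss28 had 8 counts in 1 knockout library.

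**Figure D2:**
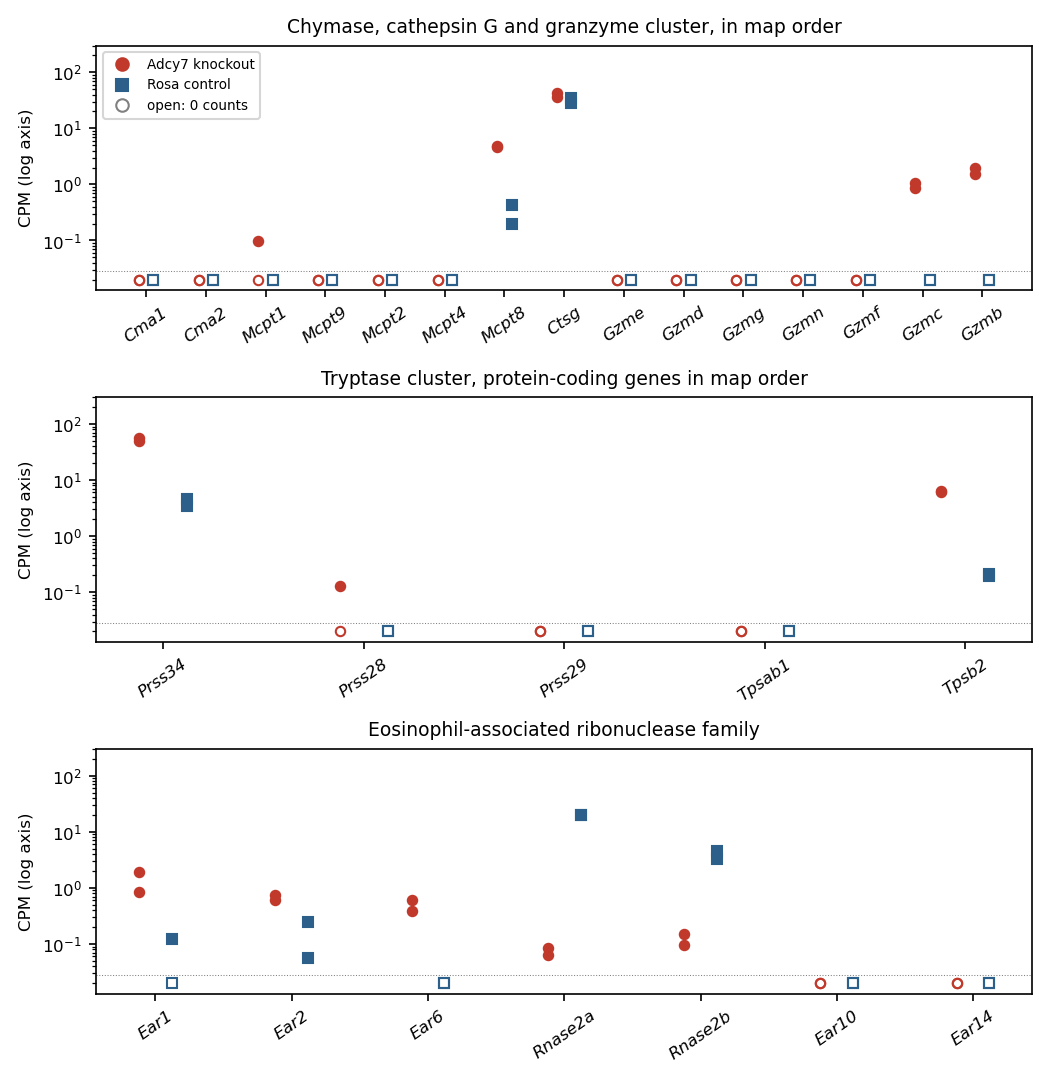
Levels in each library (CPM, log axis, open symbols for 0 counts). The panels show the chymase cluster, the tryptase cluster from Prss34 to Tpsb2 (both in map order) and the ribonuclease family. Circles are knockout and squares control libraries. Mcpt8, Prss34 and Tpsb2 are counted in all 4 libraries, with Cma1, Mcpt4 and Tpsab1 at 0 nearby, and the ribonucleases fall into Ear1, Ear2 and Ear6, higher in the knockout, and Rnase2a and Rnase2b, lower.

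Of the genes common to basophils and mast cells, Cpa3, Cyp11a1 and Ms4a2 were higher, Hdc did not pass, and Fcer1a and Il13 were too low to be tested. Cpa3, the granule carboxypeptidase gene, was at 5.76 and 6.85 CPM in the knockout and at 0.487 and 0.114 CPM in the control, or 21-fold higher. The control libraries differed 4.25-fold, and its log2 fold change of 4.42 became 5.75 without control replicate 1 and 3.71 without control replicate 2. Cyp11a1, the side-chain cleavage enzyme that starts steroid synthesis, was at 4.06 and 3.22 CPM against 0.319 and 0.157 CPM, or 15.3-fold higher (adjusted p of 1.95e-05 in edgeR's test). Ms4a2, the beta subunit of the high-affinity IgE receptor, was at 1.06 and 1.68 CPM against 0.076 and 0.301 CPM. That was 7.28-fold, and the log2 fold change of 2.82 became 2.15 without control replicate 1 and 4.15 without control replicate 2. Fcer1a, the subunit that binds IgE, had 20 and 8 counts in the knockout libraries and none in the control libraries. It was not tested, and its pooled level was 2.37-fold the control floor. The gamma subunit Fcer1g, which macrophages also use for other Fc receptors, was 1.23-fold higher, with mean levels of 1189 and 970 CPM.

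Hdc, the histidine decarboxylase that makes histamine, was at 30.1 and 31.1 CPM in the knockout and at 29.8 and 22.1 CPM in the control. The knockout libraries were just above both controls, but the log2 fold change of 0.26 (SE 0.14) did not pass (adjusted p of 0.147 in edgeR's test). It passed without control replicate 1, at 0.46 (adjusted p of 0.0486). Neutrophils also make Hdc. Of 8 neutrophil markers 0 were higher, 3 were lower and 5 did not pass, with sums of 5258 and 6718 CPM (knockout) and 7104 and 5814 CPM (control). Their part in the level of Hdc was not tested. Il13, a cytokine gene beside Il4 on chromosome 11, had 16 counts in knockout replicate 2 and 0 in the other libraries. Il5 in the same gene cluster had 4 counts in that library and 0 elsewhere, whereas Il4 was counted in all 4.

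Both GATA factors were higher. Gata1 (ENSMUSG00000031162, chromosome X) was at 4.89 and 3.3 CPM in the knockout and at 0.122 and 0.215 CPM in the control, a 24.4-fold difference (log2 fold change 4.61, SE 0.48). Gata2 on chromosome 6 was at 8.91 and 8.08 CPM against 1.17 and 1.03 CPM, or 7.72-fold higher (adjusted p of 1.95e-06 in edgeR's test). As a percent of Gata2 counts in the same library, Gata1 counts were 54.9% and 40.9% (knockout) and 10.4% and 20.8% (control), ranges that do not overlap. An exact two-sided permutation test of 2 against 2 libraries cannot go below 0.333, and the ratio is given as a description. Gata1 is also the factor of megakaryocytes and red cell precursors, whose markers are given below.

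Promoter sequences were available from RefSeq (GRCm38.p6, 250 bases before to 50 after the start) for 25 of the 30 genes. They were searched on both strands for the GATA factor motif in the forms AGATAA or AGATAG or TGATAA or TGATAG, with overlapping matches counted. A match was present in 16 of the 25 genes, or 64%, and in 33% of the 27025 genes of the promoter table. Among the 17 matched members called higher 8 held one, and among the 8 not called or not tested all 8 did. Ms4a2 and Cd200r3, with 3 matches each, had the most, and Ccr3, Slc18a2 and Siglecf had 2. Of these, 3 called genes are printed beside Siglecf, which did not pass. At least 2 matches were found in 7.77% of all 32851 windows. Sequences run 5′ to 3′ in the direction of the gene, and capitals mark the matches. A match describes the letters only and is not evidence of binding.
Ms4a2 (chr19:11623670-11623969, minus strand): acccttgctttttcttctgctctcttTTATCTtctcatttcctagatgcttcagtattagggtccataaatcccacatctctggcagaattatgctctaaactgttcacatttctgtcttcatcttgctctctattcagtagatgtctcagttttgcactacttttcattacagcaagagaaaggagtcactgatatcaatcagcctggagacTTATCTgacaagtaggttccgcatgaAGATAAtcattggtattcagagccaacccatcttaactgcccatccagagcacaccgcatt
Cd200r3 (chr16:44943428-44943727, plus strand): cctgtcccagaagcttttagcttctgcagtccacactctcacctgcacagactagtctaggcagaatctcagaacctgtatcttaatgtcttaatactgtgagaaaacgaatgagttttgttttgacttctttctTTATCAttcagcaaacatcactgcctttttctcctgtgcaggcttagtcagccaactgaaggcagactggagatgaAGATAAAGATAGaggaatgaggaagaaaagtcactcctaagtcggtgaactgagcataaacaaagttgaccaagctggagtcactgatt
Ccr3 (chr9:124021721-124022020, plus strand): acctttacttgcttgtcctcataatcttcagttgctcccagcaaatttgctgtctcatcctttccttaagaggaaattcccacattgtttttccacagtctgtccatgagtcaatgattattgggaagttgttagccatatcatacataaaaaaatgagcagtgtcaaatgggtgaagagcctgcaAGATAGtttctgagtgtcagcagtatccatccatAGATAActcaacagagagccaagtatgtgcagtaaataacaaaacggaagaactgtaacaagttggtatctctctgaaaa
Siglecf (chr7:43351091-43351390, plus strand): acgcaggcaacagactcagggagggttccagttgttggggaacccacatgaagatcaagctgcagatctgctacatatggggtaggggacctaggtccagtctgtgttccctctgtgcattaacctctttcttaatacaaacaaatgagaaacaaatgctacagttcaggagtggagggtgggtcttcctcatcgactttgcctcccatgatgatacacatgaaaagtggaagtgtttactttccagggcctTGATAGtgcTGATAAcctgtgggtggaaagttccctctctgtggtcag

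Srgn and Cd69 are not restricted to these lineages. Srgn, the core protein of the proteoglycan that holds granule proteins in many blood cells including macrophages, was at 295 and 357 CPM in the knockout and at 143 and 145 CPM in the control. This 2.26-fold difference (log2 fold change 1.19, SE 0.10, adjusted p of 3.52e-06 in edgeR's test) was the smallest of the 20 calls. Cd69, an activation marker of lymphocytes and granulocytes, was at 6.74 and 10.5 CPM against 13.2 and 9.67 CPM, with overlapping groups. Its log2 fold change of -0.40 (SE 0.21) did not pass, but became -0.71 (adjusted p of 0.0121) without knockout replicate 2 and -0.59 (adjusted p of 0.0352) without control replicate 2.

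**Figure D3:**
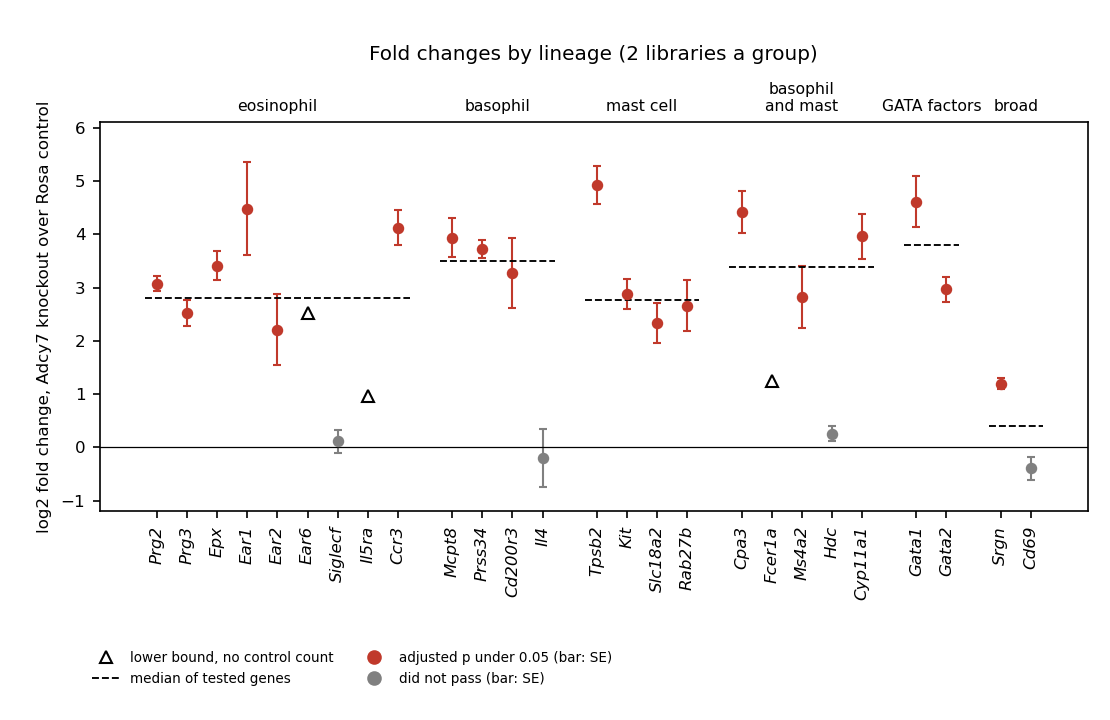
Fitted log2 fold change (knockout over control) of tested members by lineage, with standard errors as bars. Triangles place Ear6, Il5ra and Fcer1a against the control floor, and Il13 is not drawn. Dashed lines give the median of tested genes with Ear6 at its bound. In each of the eosinophil, basophil and shared basophil and mast cell groups 1 tested member lies near 0 (Siglecf, Il4 and Hdc), while all 4 tested mast cell genes lie above 2.

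Genes of all 3 lineages were among the calls. Of 9 eosinophil genes 7 passed, 1 did not and 1 was not tested, with a median log2 fold change of 2.80 over the tested genes with Ear6 at its bound. Of 4 basophil genes 3 passed and 1 did not (median 3.50), and of 7 mast cell genes 4 passed and 3 had no count (median 2.77 over 4). Of 6 genes shared by basophils and mast cells 3 passed, 1 did not and 2 were not tested (median 3.39 over 4). Over only those members that both control libraries held above the filter, the medians were 3.07 for 5 eosinophil genes (4 higher), 3.73 for 3 basophil genes (2 higher), 2.77 for the same 4 mast cell genes and 2.11 for Hdc and Cyp11a1 (1 higher). Summed levels of the eosinophil list were 291 and 231 CPM in the knockout against 36.1 and 32.2 CPM in the control, mostly Prg2. Those of the basophil list were 63.4 and 55.6 CPM against 5.57 and 4.34 CPM, and those of the mast cell list 17.3 and 16.4 CPM against 1.79 and 2.02 CPM. The sums were 7.64-fold, 12-fold and 8.85-fold higher, and the eosinophil sum without Prg2 was 5.37-fold higher. The list shared by basophils and mast cells, mostly Hdc, summed to 41.2 and 43.2 CPM against 30.7 and 22.7 CPM, or 1.58-fold. Whether these folds differ between lineages was not tested, since the lists hold few genes and there were 2 libraries a group.

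Ratios within a library do not depend on its total. They set single genes, not whole lineages, against each other. As a percent of Prg2 counts, Prss34 was at 22.9% and 25.8% (knockout) against 17.2% and 13.5% (control). For Tpsb2 this ratio was 2.60% and 3.19% against 0.728% and 0.835%, and for Cpa3 2.31% and 3.61% against 1.79% and 0.445%. In these 3 genes, and in Mcpt8 and the eosinophil receptor gene Ccr3, both knockout ratios were above both control ratios. Epx overlapped between the groups, at 8.13% and 9.64% against 9.80% and 4.06%, and Prg3 was lower relative to Prg2 in the knockout, 4.15% and 4.54% against 7.62% and 5.07%. Tpsb2 was also higher relative to Prss34, at 11.3% and 12.4% against 4.23% and 6.20%. No permutation test over 2 against 2 libraries can pass for these ratios, and they are given as a description.

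**Figure D4:**
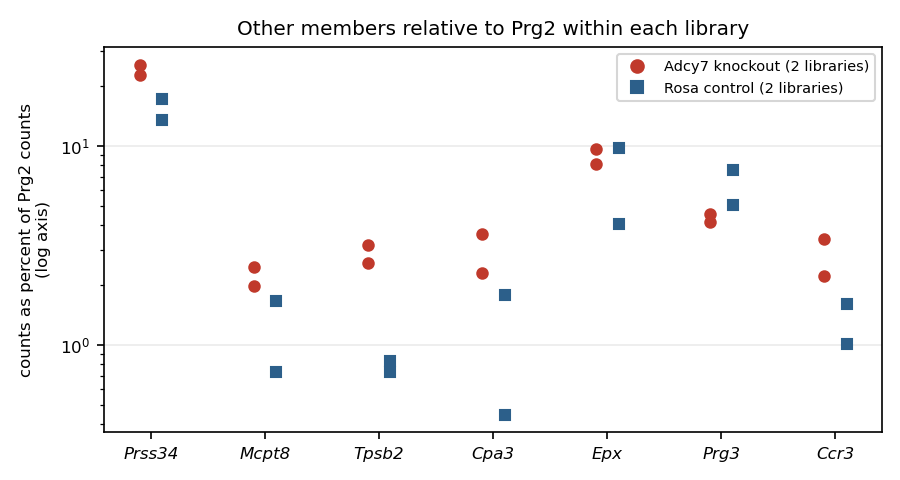
Counts of 7 members as a percent of Prg2 counts in the same library (log axis), circles for knockout and squares for control libraries. The knockout values lie above the control values for Prss34, Mcpt8, Tpsb2, Cpa3 and Ccr3, overlap them for Epx and lie below them for Prg3.

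Other genes of these lineages moved less uniformly than the members. Of 11 further eosinophil genes 8 were tested, of which 4 were higher and 4 lower, with a median log2 fold change of -0.08. Alox15, a lipoxygenase gene of eosinophils and of activated macrophages, was 32.2-fold higher, at 17.6 and 18.4 CPM against 0.487 and 0.63 CPM. Csf2rb, the shared beta chain of the receptors for interleukins 3 and 5 and GM-CSF, and its near copy Csf2rb2 were 2.87-fold and 4.07-fold higher. Macrophages carry them too. Their coding sequences were 92.9% identical, and 26% of the 50-base stretches of Csf2rb were also in Csf2rb2, so counts may be split between them. Cebpe, a granulocyte maturation factor, was 1.46-fold higher, while on the log2 scale Trib1 and Xbp1, which eosinophil development requires, fell by 2.14 and 0.73. Of 13 further basophil and mast cell genes 6 were tested, 3 higher, 2 lower and 1 not passing. Gzmb, with no control count, was 19.5-fold the control floor. Il1rl1, the interleukin 33 receptor of mast cells, basophils and lymphoid cells, was 3.47-fold higher, and Ctsg 1.26-fold. Mitf, a factor that mast cells need, and Ndst2, which modifies heparin, fell by 0.55 and 0.72. Control means were 53.8 CPM for Trib1, 246 for Xbp1, 32.6 for Mitf and 55.6 for Ndst2, against 1.85 CPM for Epx. The part of macrophages in these levels was not tested. The mast cell receptor genes Mrgprb1 and Mrgprb2 and the serotonin enzyme gene Tph1 had no count.

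Genes of IgE receptor signalling split. The leukotriene and prostaglandin genes listed with them were lower, unlike the lipoxygenase gene Alox15 above. Macrophages express most of both groups. Of 13 genes in all 9 were lower, 3 higher and 1 did not pass (median log2 fold change -0.74). Among the signalling genes Lyn, Lat2, Btk and Plcg2 were lower, the kinase gene Syk was 1.56-fold higher, Fcer1g and Lat were also higher, and Plcg1 did not pass. The leukotriene genes Alox5 and Alox5ap fell by 1.38 and 1.37, and Ltc4s and Hpgds, whose enzymes make leukotriene C4 and prostaglandin D2, fell by 0.96 and 0.98, as Ptgs1 fell by 0.92. The adaptor gene Lat, which T cells, mast cells and platelets use, was at 8.12 and 7.17 CPM against 0.487 and 0.501 CPM, or 15.5-fold higher. Of 11 cytokines and chemokines that act on the lineages 6 were tested, with 3 higher, 1 lower and 2 not passing. Csf2, the gene of GM-CSF, was at 2.14 and 1.75 CPM with no control count, 22.2-fold the control floor. The chemokine genes Ccl5 and Ccl7, whose products bind Ccr3 among other receptors, were 8.35-fold and 7.07-fold higher. Il3 and the eotaxin gene Ccl11 had no count, Il5 had 4, and Ccl24, the other mouse eotaxin, had 14 and 12 counts in the control libraries and 0 in the knockout libraries.

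Markers of other blood cells moved in the same libraries, and their part in the differences above was not tested. All 8 megakaryocyte and platelet markers were higher, with summed levels of 351 and 311 CPM against 200 and 184 CPM. Gp1bb was 34.6-fold and Itga2b 7.36-fold higher. Of 6 erythroid markers 2 were higher (Hbb-bt and Hba-a1, 11.7-fold and 7.21-fold), 2 did not pass and 2 were not tested. Among the latter, Alas2 had 0 counts in the knockout and 2 and 3 in the control libraries, under the floor of 12 pooled counts. The B cell markers Cd79a and Ms4a1 were 11.3-fold and 4.04-fold higher. Of 6 markers of T and innate lymphoid cells, which can also make Il4 and Il13, 2 passed, Il7r and Gata3, at 14.8-fold and 2.54-fold. Cd3e (mean 0.345 against 0.0836 CPM) and Cd3d (0.307 against 0.127 CPM) did not pass. Of 4 progenitor genes Cd34, Flt3 and Meis1 were 2.17-fold, 2.55-fold and 3.07-fold higher and Hoxa9 was lower. Of 6 macrophage markers 5 were lower and Cd68 did not pass.

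**Figure D5:**
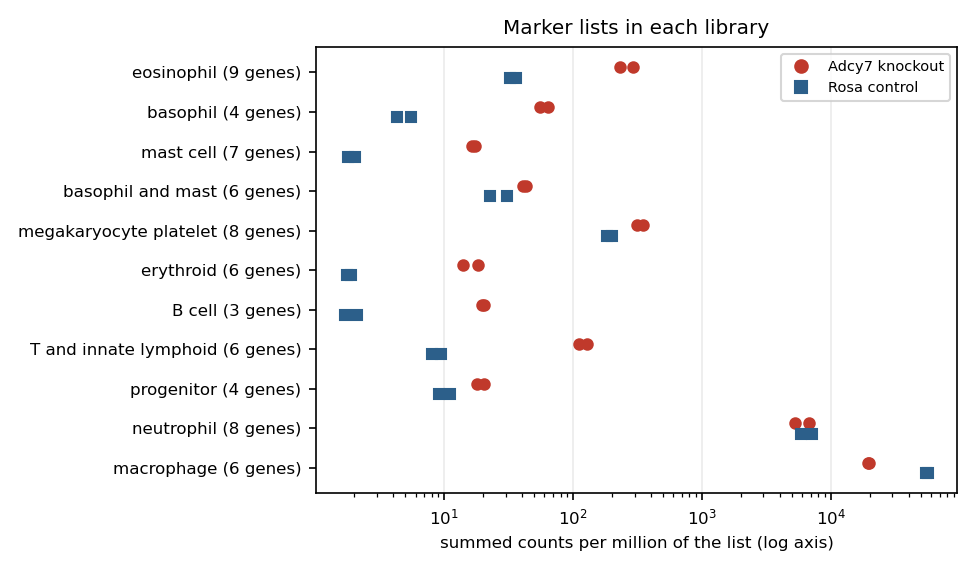
Summed CPM of each marker list in the 4 libraries (log axis), circles for knockout and squares for control. Knockout sums lie to the right of control sums for the eosinophil, basophil, mast cell and shared basophil and mast cell lists. They also do so for the platelet, erythroid, B cell, T and innate lymphoid and progenitor lists. Sums overlap for neutrophil markers and lie to the left for macrophage markers.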

How the data were processed

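Values deposited by the authors are estimated counts per Ensembl gene, whole numbers in 4 libraries, not normalized. The tools fastp, HISAT2, StringTie and edgeR and the build GRCm39 are named per the submitters' processing notes, with no settings. RNA was poly(A) selected, per the labels' protocols. Multiples of 4 made up 30.54% to 32.17% of values from 1 to 40 per library. Every 4th whole number is such a multiple, and most of these values were not. A fragment was taken to be worth about 4 counts. This is an assumption, on which floors (3 fragments, 12 counts pooled over a group) and counting intervals (exact binomial, 95%) rest. Both cover counting error only. Folds against a floor, and the bound of Ear6, leave out the counting error of the knockout counts. Symbols came from a GRCm38 annotation (55141 of 55401 IDs), so no coordinates of the count table are given; promoters carry GRCm38.p6 coordinates.

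Knockout columns are headed KO3 and a number, and were matched to the titles by KO and that number. Genes passing filterByExpr (15832) were scaled by TMM and tested with edgeR 4.0.16 in R 4.3.3 (quasi-likelihood test, legacy off, 2 residual degrees of freedom, adjusted p under 0.05). The SE is the log2 fold change over the root of F. The test was checked on simulated counts. Lengths are unions of exons in GENCODE M21, and identities come from global alignment of coding sequences. Kits that keep strand are not named, so overlapping genes may share reads.

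The members and lists were chosen with earlier results of these data known. By rule, every member with at least 12 counts is given per library, and up to 2 passing genes of each other list are named with those a result turns on. Further genes were named after their values were seen, and some marker genes are not reported here. Alternatives were RLE factors, library totals, DESeq2 1.42.0, no filter, counts divided by 4, a replicate block and leaving out each library. The older quasi-likelihood method was added after seeing the data.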

Additional observations from a re-analysis of the deposited data

How the results depend on the processing

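There were 11 alternatives. The 20 members called higher include the 7 that entered the test through their knockout counts. Of the 20 members called higher, 19 stayed higher and past the threshold under every alternative in which they could be tested, the exception being Ear2, and Ear6 fell below the filter once counts were divided by 4. Over 262 member values, 256 kept their direction and side of the threshold, 3 lost the call (all Ear2), 3 gained one (Cd69 in 2 settings and Hdc in 1) and 0 reversed. Of the members too low for the count filter, Il13 was called without knockout replicate 1 (adjusted p of 0.0475) and Fcer1a without knockout replicate 2 (0.0396). With no count filter neither they nor Il5ra passed (0.31, 0.0762 and 0.0888, edgeR). The number of members called higher ran from 19 to 21 when each library was left out in turn, and the number called lower from 0 to 1, where the 1 was Cd69. With the replicate number as a block 20 members were called higher, 0 lower and 7843 genes in all, against 7848 without it. The replicate numbers were taken as names only, since the labels name no shared mouse or day. Deviations of same-numbered libraries had a correlation over genes of 0.03, which with 2 pairs cannot decide whether libraries were paired. The older quasi-likelihood method called 7400 genes and the same number of members, 20. Fold sizes of Ear1, Ear2, Cd200r3, Cpa3, Ms4a2, Mcpt8, Rab27b and Epx moved by over 1.5 times with 1 control library left out, and that of Ear1 also without knockout replicate 2.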
